A study of Mus musculus with 7 samples.

Results

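Calcium handling genes of the cardiomyocyte were compared between non-transgenic (NTG) and mNrf2-TG mouse hearts. The genes were matched by symbol in the gene table, without the use of their values: the release channel Ryr2 and its partners Casq2, Trdn and Jph2, the reuptake pump Atp2a2 with its inhibitors Pln and Sln, the L-type channel subunit Cacna1c, the sodium-calcium exchanger Slc8a1, and the kinase Camk2d. Of the 10 named genes, 9 were among the 14641 genes of the count table, and all 9 were among the 14637 genes tested. Sln had no entry under its symbol and was not analysed here.

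RNA was from whole heart lysate of male C57BL/6J mice, with 4 NTG and 3 mNrf2-TG libraries and 1 library per mouse. The mNrf2-TG mice carried full-length Nrf2 under the αMHC promoter, which drives expression in cardiomyocytes, and NTG littermates without the transgene served as controls. The labels give 6 months of age for the mNrf2-TG samples and none for the NTG samples, and the series description gives 7 to 8 months. Hearts are named here by their library numbers, NTG 1 to 4 and mNrf2-TG 17 to 19, and poly(A)-selected RNA was read from stranded libraries. Between 6534684 and 8405857 reads per NTG library and between 6953122 and 8060644 per mNrf2-TG library were counted on genes. Counts of Nfe2l2, which encodes Nrf2, ranged from 729 to 1392 across the NTG hearts and from 10912 to 12839 across the mNrf2-TG hearts, and reads of the transgene and of the endogenous gene cannot be told apart. NTG 3 stood apart from the other NTG libraries in some genes: it had 7947 normalised counts of Acta2, a smooth muscle actin, against at most 1886 in the other 3. The mNrf2-TG hearts had 9353, 8266 and 5470, so NTG 3 lay within their range. The Log2FC of Acta2 was 1.37 (95% interval −0.03 to 2.76, adjusted p = 0.163 in edgeR).

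With each heartbeat, calcium that enters through L-type channels opens ryanodine receptors, which release the larger store held in the sarcoplasmic reticulum. Relaxation follows when the SERCA pump returns calcium to the store and the sodium-calcium exchanger moves it out of the cell. Phospholamban and sarcolipin restrain the pump, calsequestrin binds calcium inside the store, triadin and junctophilin hold the release site together, and CaMKII phosphorylates several of these proteins.

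Casq2 and Slc8a1 rose in mNrf2-TG hearts, and Pln and Trdn fell, with libraries scaled over all genes. Casq2 was 46.5% higher (Log2FC 0.55) and Slc8a1 70.7% higher (Log2FC 0.77), while Pln fell by 15.9% and Trdn by 18.2%. The other 5 members had an adjusted p above 0.05: Ryr2, Atp2a2 and Camk2d had groups that did not overlap, and Jph2 and Cacna1c had groups that did. Thus 4 of 9 members had an adjusted p under 0.05 in edgeR's quasi-likelihood test, and 5 in DESeq2 or limma-voom, where Ryr2 was added, against 17.2% of all genes tested (8.48% higher and 8.73% lower). These members are abundant, and of the 604 genes with at least the mean normalised count of Camk2d, the least abundant member, 39.4% were called, so the members' share lay near that of equally abundant genes. Groups did not overlap in 7 of 9 members, against 29.7% of all genes and 52.0% of those 604. No member passed an unadjusted p under 0.05 with a fold change above 2, as 5.65% of all genes did, although 7 of 9 had an unadjusted p under 0.05. The median Log2FC was 0.00 over the 9 members and 0.001 over all genes.

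**Figure D1:**
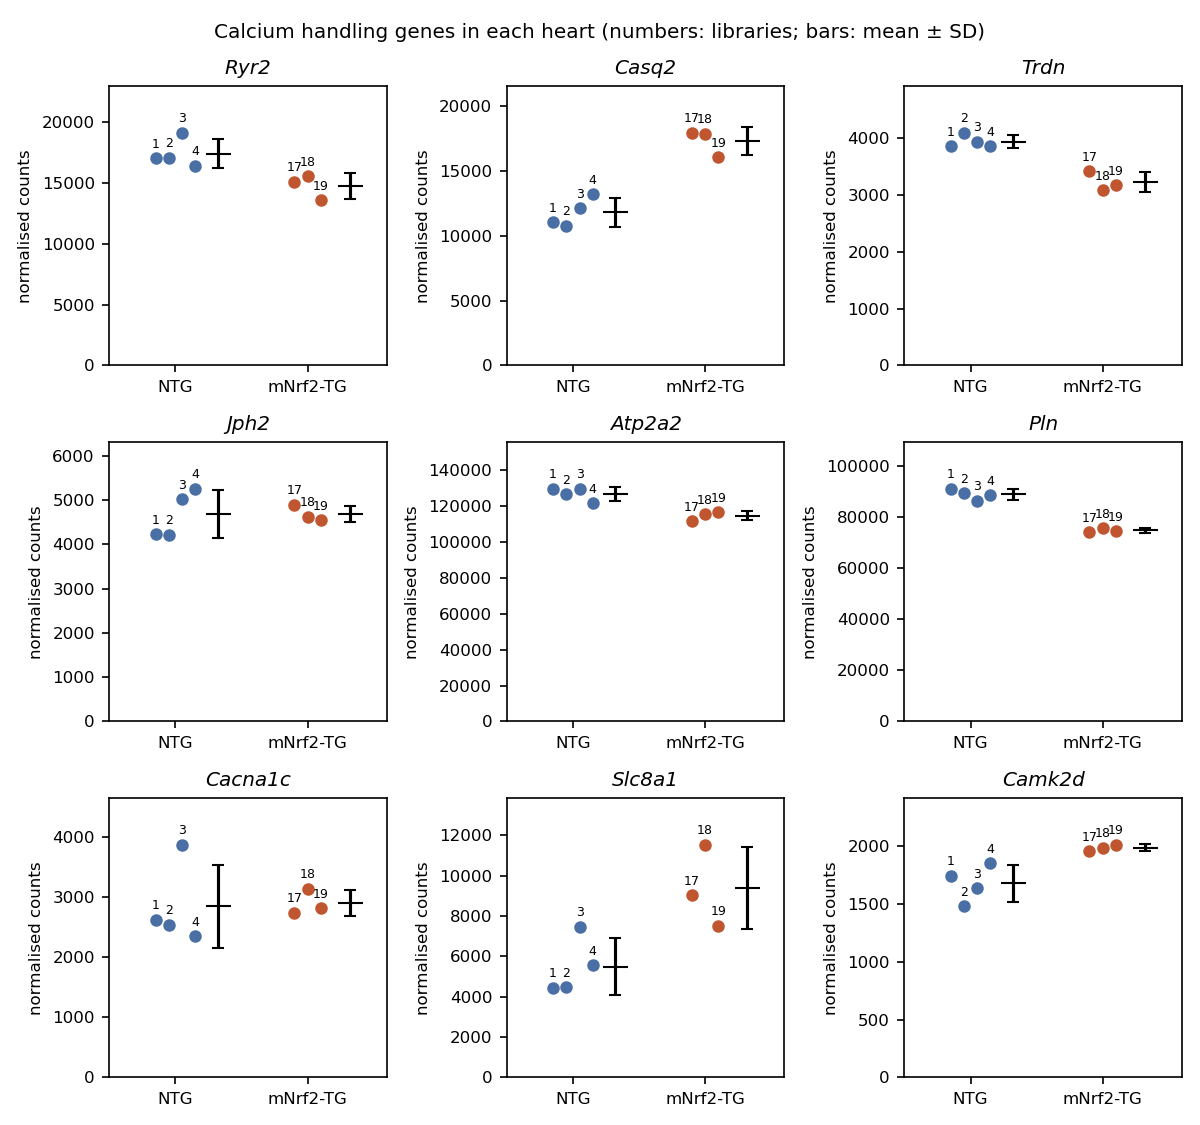
Normalised counts (y axis, from 0) of the 9 calcium handling genes in each library, with NTG hearts in blue, mNrf2-TG hearts in red, library numbers above the points and bars for the mean ± SD. Casq2 and Slc8a1 are higher and Pln and Trdn lower in all 3 mNrf2-TG hearts, and NTG 3 is the highest NTG heart for Slc8a1, Cacna1c and Ryr2.

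Counts were scaled by the TMM method to a common library size, and all normalised counts given here are on that scale. Among 8 cardiomyocyte markers, Tnni3 (Log2FC −0.53), Myl2 (−0.57) and Ckm (−0.39) were called lower, 0 were called higher and 5 were not called, a share of calls near the 39.4% of abundant genes, with a median Log2FC of −0.24. Myh6, whose promoter drives the transgene, had overlapping groups (−0.28, adjusted p = 0.222). The summed normalised count of the 8 markers was 556796 to 618327 in NTG and 476350 to 506909 in mNrf2-TG hearts. In bulk samples, fewer cells of a type and less RNA per cell cannot be told apart. A further fit, chosen after the data were seen, scaled each library to the geometric mean of these 8 markers. In that fit the median over all genes moved from 0.001 to 0.255, so its values are read against that shift, 29.9% of all genes were called, and 27.3% of all genes were called higher. Casq2 (Log2FC 0.80) and Slc8a1 (1.03) were again called higher, Camk2d (0.50) was called higher as well, and no member was called lower.

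**Figure D2:**
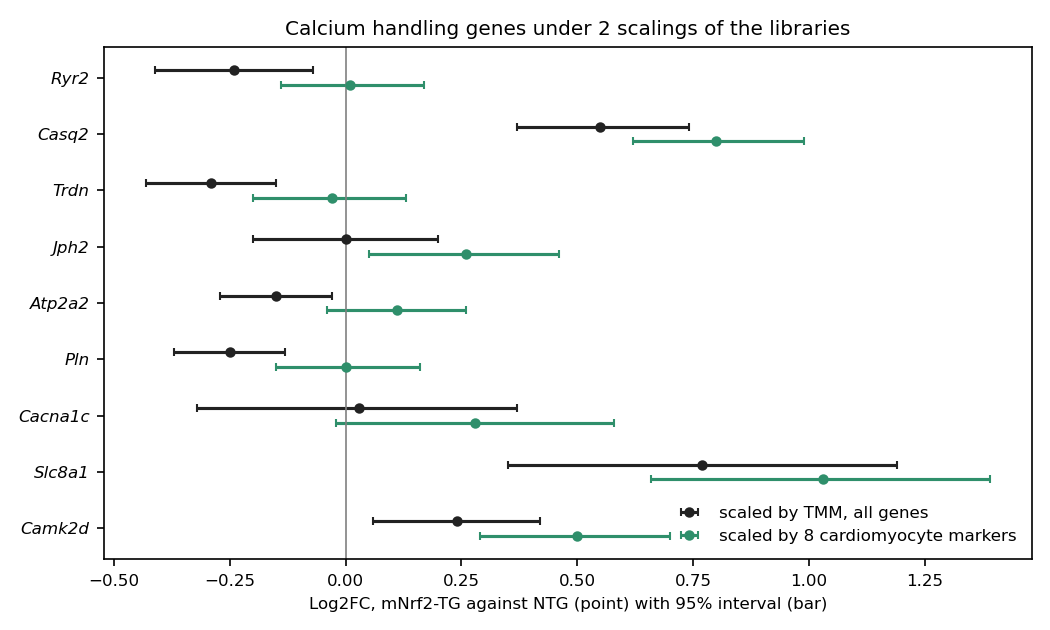
Log2FC of mNrf2-TG against NTG (x axis) for the 9 calcium handling genes, with points for the estimate and bars for the 95% interval, scaled over all genes (black) or to 8 cardiomyocyte markers (green). Casq2 and Slc8a1 lie above 0 on both scales, whereas Pln, Trdn and Ryr2 lie below 0 on the first scale and within 0.03 of it on the second. The median of all genes lies at 0.001 on the first scale and at 0.255 on the second.

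Sequences upstream of the start sites are shown for both members that rose, Casq2 and Slc8a1, for Pln, which fell, and for the Cacna1c window that holds a match to the antioxidant response element, the site bound by Nrf2 with small Maf proteins. They are from the RefSeq promoter table of build GRCm38.p6, written 5′ to 3′ on the gene's strand and ending 1 base before the RefSeq start. Capitals mark matches to any of the motifs searched on both strands: the antioxidant response element (TGACNNNGC), the AP-1 site (TGANTCA), the core of the GATA factor site (GATAA), the E-box of bHLH factors (CANNTG) and the MEF2 motif.
Casq2, chr3:102086165-102086414, plus strand: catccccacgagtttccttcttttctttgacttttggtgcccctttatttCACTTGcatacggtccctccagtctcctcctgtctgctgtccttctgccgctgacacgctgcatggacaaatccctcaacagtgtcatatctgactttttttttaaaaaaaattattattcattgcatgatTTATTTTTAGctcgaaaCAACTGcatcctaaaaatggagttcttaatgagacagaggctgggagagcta
Slc8a1, chr17:81738388-81738637, minus strand: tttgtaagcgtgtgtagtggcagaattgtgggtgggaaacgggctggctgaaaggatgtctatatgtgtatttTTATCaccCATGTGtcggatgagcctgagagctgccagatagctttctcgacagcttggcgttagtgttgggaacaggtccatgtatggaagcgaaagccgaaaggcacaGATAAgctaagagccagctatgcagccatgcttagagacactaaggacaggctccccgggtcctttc
Pln, chr10:53337436-53337685, plus strand: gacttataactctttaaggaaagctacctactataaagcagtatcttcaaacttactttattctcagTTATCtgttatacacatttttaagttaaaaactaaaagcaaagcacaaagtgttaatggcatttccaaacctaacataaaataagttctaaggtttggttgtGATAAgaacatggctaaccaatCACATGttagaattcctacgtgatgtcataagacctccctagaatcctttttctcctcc
Cacna1c, chr6:119196410-119196659, minus strand: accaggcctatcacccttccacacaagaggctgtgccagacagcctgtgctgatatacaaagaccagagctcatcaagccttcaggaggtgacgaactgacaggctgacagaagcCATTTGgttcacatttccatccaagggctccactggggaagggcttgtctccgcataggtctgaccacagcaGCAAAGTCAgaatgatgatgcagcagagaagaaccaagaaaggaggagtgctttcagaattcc

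The table held windows for 7 of the 9 members, 10 windows in all, and none for Atp2a2 or Trdn. The antioxidant response element matched 1 of the 10, the Cacna1c window shown, where the match began 63 bases before the start, on the opposite strand to the motif as spelled. It matched 10.2% of all 32851 promoters of the same length. Cacna1c was not called. AP-1, whose letters can overlap with the antioxidant response element, matched none of the 10 windows and 6.75% of all promoters. The MEF2 motif, bound by a family of muscle transcription factors, matched the Casq2 window alone, 69 bases before the start, and 2.92% of all promoters. GATAA matched the Pln and Slc8a1 windows, each at 2 positions, and 22.6% of all promoters, while the short E-box matched windows of 6 members and 66.2% of all promoters. These matches describe letters in a window of 250 bases, and binding was not measured.

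Per kilobase of the transcript with the longest coding sequence, the NTG levels of the members ran from Pln and Atp2a2 at the top to Camk2d at the bottom. Pln had 38143 ± 851 normalised counts per kilobase (SD, n = 4), rank 8 of 14623 genes with a length, and Atp2a2 had 22380 ± 686, rank 14. Casq2 followed with 4842 ± 456 and Slc8a1 with 1726 ± 445, the latter over an annotated transcript of 3.18 kilobases. Thus the pump and its inhibitor were among the most abundant messages of the heart, above the other members. Jph2 had 1111 ± 128 and Ryr2 1036 ± 70.5 per kilobase, and these neighbours overlapped (1001 to 1249 and 977 to 1139), so their order was not settled by these libraries. Trdn had 872 ± 24.7, Cacna1c 426 ± 104 and Camk2d 311 ± 29.3 per kilobase. No other neighbours in this order overlapped in NTG. Together the 9 members took 3.44 to 3.54% of all counts of an NTG heart and 3.22 to 3.32% of those of an mNrf2-TG heart.

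At the release site, Casq2 was higher, Trdn was lower, and Ryr2 and Jph2 were not called. Casq2 (chr3:102086415-102146514, plus strand, GRCm38 with GENCODE M21) encodes cardiac calsequestrin, the calcium-binding protein of the sarcoplasmic reticulum. Its normalised counts were 11048, 10771, 12123 and 13203 in NTG 1 to 4 and 17943, 17845 and 16031 in mNrf2-TG 17 to 19. Every mNrf2-TG heart was above every NTG heart. The mean rose from 11786 ± 1110 (SD, n = 4) to 17273 ± 1077 (n = 3), a Log2FC of 0.55 (SE 0.0826, 95% interval 0.37 to 0.74, adjusted p = 0.00252 in edgeR). It was called with each library left out in turn (0.52 to 0.61). In the fit scaled to cardiomyocyte markers, Casq2 was at 0.80 (0.62 to 0.99, adjusted p = 0.000131). That fit moved the median gene to 0.255, so its call of a higher gene adds no separate support.

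Trdn (chr10:33080554-33476709, plus strand) encodes triadin, which links calsequestrin to the release channel. The NTG hearts had 3857, 4094, 3935 and 3857 normalised counts of it and the mNrf2-TG hearts 3413, 3082 and 3166. All 3 mNrf2-TG hearts were below all 4 NTG hearts, and the spread within each group was small. The mean was 3936 ± 112 (SD, n = 4) in NTG and 3220 ± 172 (n = 3) in mNrf2-TG, a Log2FC of −0.29 (SE 0.0642, −0.43 to −0.15, adjusted p = 0.0140 in edgeR). The adjusted p was 0.0574 without mNrf2-TG 18 and 0.0550 without mNrf2-TG 19. On the scale of the cardiomyocyte markers, the Log2FC of Trdn was −0.03 (−0.20 to 0.13, adjusted p = 0.766). The median gene was at 0.255 there, a shift that all genes share.

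Ryr2 (chr13:11553102-12106945, minus strand) encodes the ryanodine receptor of cardiac muscle, the channel through which the store is released. Its normalised counts were 17024, 17080, 19144 and 16432 in NTG and 15111, 15565 and 13568 in mNrf2-TG hearts. The groups did not overlap, with NTG 3 the highest. The Log2FC was −0.24 (SE 0.0754, −0.41 to −0.07), and the adjusted p was 0.0543 in edgeR, 0.0315 in DESeq2 and 0.0444 in limma-voom. The marker-scaled Log2FC was 0.01 (−0.14 to 0.17). Jph2 (chr2:163336242-163397993, minus strand) encodes junctophilin, which tethers the sarcoplasmic reticulum to the T-tubule. Its groups overlapped, at 4224, 4214, 5024 and 5258 normalised counts in NTG and 4892, 4619 and 4546 in mNrf2-TG hearts, with a Log2FC of 0.00 (SE 0.0908, −0.20 to 0.20, adjusted p = 0.991). Its marker-scaled Log2FC was 0.26 (0.05 to 0.46, adjusted p = 0.0568), close to the median shift of all genes in that fit.

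Of the pair that sets reuptake, the inhibitor Pln was called lower and the pump Atp2a2 was not called. Pln (chr10:53337667-53345987, plus strand) encodes phospholamban, which in its unphosphorylated form lowers the calcium affinity of the pump. Its normalised counts were 91328, 89556, 86550 and 88668 in NTG and 74194, 75853 and 74663 in mNrf2-TG hearts. The groups were far apart relative to their spread, at 89026 ± 1987 (SD, n = 4) and 74903 ± 855 (n = 3). The Log2FC was −0.25 (SE 0.0527, −0.37 to −0.13, adjusted p = 0.0114 in edgeR), and the adjusted p was 0.0577 without NTG 1. Scaled to cardiomyocyte markers, the Log2FC of Pln was 0.00 (−0.15 to 0.16, adjusted p = 0.974), where the median gene was at 0.255. A change of scale moves all genes by about the same amount, so Pln stayed below the median gene on both scales. With libraries scaled over all genes, the median Log2FC of the 8 cardiomyocyte markers was −0.24, near the −0.25 of Pln. The part of the markers' lower level in the value of Pln was not tested.

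Atp2a2 (chr5:122453513-122502225, minus strand) encodes SERCA2, the calcium pump of the sarcoplasmic reticulum. The NTG hearts had 129884, 126709, 129759 and 121574 normalised counts of it and the mNrf2-TG hearts 111828, 115637 and 116608. All mNrf2-TG values lay below all NTG values, but the Log2FC of −0.15 (SE 0.0546, −0.27 to −0.03) had an adjusted p of 0.0930. Its Log2FC was 0.11 (−0.04 to 0.26) on the scale of the cardiomyocyte markers, where the median gene was at 0.255. Pln lies within Cep85l on the opposite strand and shares 141 exonic bases with it. Pln also shares 1644 exonic bases with Gm47644, an annotated gene on the opposite strand that has no row in the count table. Counts of Cep85l ranged from 90 to 137 across the NTG hearts and from 69 to 88 across the mNrf2-TG hearts. The sources do not say whether counting used the strand, so reads of these overlaps may be shared. Cep85l counts were few beside those of Pln, and the counts of Gm47644 are not known.

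At the cell membrane, Slc8a1 was higher and Cacna1c did not differ detectably. Slc8a1 (chr17:81373105-81738377, minus strand) encodes NCX1, the exchanger that moves calcium out against sodium. Its normalised counts were 4442, 4483, 7459 and 5572 in NTG and 9044, 11540 and 7526 in mNrf2-TG hearts. The groups did not overlap, but NTG 3 came within a small margin of mNrf2-TG 19, and both groups were spread widely. The mean rose from 5489 ± 1414 (SD, n = 4) to 9370 ± 2027 (n = 3), a Log2FC of 0.77 (SE 0.190, 0.35 to 1.19, adjusted p = 0.0215 in edgeR). Without NTG 3 it was 0.96 (adjusted p = 0.00157).

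The call for Slc8a1 was lost when other single libraries were left out, with the Log2FC still positive. It was 0.69 without NTG 1 (adjusted p = 0.0561), 0.69 without NTG 2 (0.0564), 0.80 without mNrf2-TG 17 (0.0603) and 0.59 without mNrf2-TG 18 (0.0862). With the cardiomyocyte markers as the scale, the Log2FC of Slc8a1 was 1.03 (0.66 to 1.39, adjusted p = 0.00143), where the median gene was at 0.255. Slc8a1 shares 296 exonic bases with an annotated antisense gene that has no row in the count table.

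Cacna1c (chr6:118587240-119196418, minus strand) encodes the pore of the L-type channel, through which calcium enters. Its normalised counts were 2623, 2536, 3870 and 2347 in NTG and 2739, 3138 and 2808 in mNrf2-TG hearts. NTG 3 was above every other heart, and the other 3 NTG hearts were below all mNrf2-TG hearts. The Log2FC was 0.03 (SE 0.154, −0.32 to 0.37, adjusted p = 0.930), and without NTG 3 it was 0.21 (adjusted p = 0.0841). In NTG 3, Cacna1c and Slc8a1 were both 0.63 on the log2 scale above the mean of the other NTG hearts and Ryr2 (0.18) and Jph2 (0.14) were above it by less, while Casq2 (0.05), Atp2a2 (0.04), Trdn (0.00), Pln (−0.05) and Camk2d (−0.05) were near it. The part of NTG 3's other differences in these values was not tested.

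Camk2d (chr3:126596302-126846326, plus strand) encodes the delta isoform of CaMKII, the main form of this calcium-activated kinase in the heart. Its normalised counts were 1745, 1484, 1636 and 1855 in NTG and 1956, 1989 and 2016 in mNrf2-TG hearts. The mNrf2-TG hearts were close together and all above the NTG hearts. The Log2FC was 0.24 (SE 0.0812, 0.06 to 0.42) with an adjusted p of 0.0671, and 0.30 (0.0379) without NTG 4. With marker scaling Camk2d was called higher, at 0.50 (0.29 to 0.70, adjusted p = 0.00344). In that fit the median gene was at 0.255 and 27.3% of all genes were called higher.

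Ratios of members within a library do not depend on how libraries are scaled. They were taken on counts, not per length, and tested by an exact two-sided permutation test over all 35 assignments of 7 libraries to groups of 4 and 3, which cannot give a p below 0.0286. The Casq2 to Ryr2 ratio was 0.649, 0.631, 0.633 and 0.804 in NTG and 1.19, 1.15 and 1.18 in mNrf2-TG hearts. Casq2 thus had fewer counts than Ryr2 in every NTG heart and more in every mNrf2-TG heart. The log2 difference was 0.79 (exact permutation p = 0.0286, adjusted over 3 ratios 0.0571). The Slc8a1 to Atp2a2 ratio was 0.0342, 0.0354, 0.0575 and 0.0458 in NTG and 0.0809, 0.0998 and 0.0645 in mNrf2-TG hearts, a log2 difference of 0.93 (exact permutation p = 0.0571, adjusted 0.0571). All 3 mNrf2-TG hearts had a higher ratio of exchanger to pump than all 4 NTG hearts, and on a linear scale the exact p was 0.0286. The Pln to Atp2a2 ratio was 0.703, 0.707, 0.667 and 0.729 in NTG and 0.663, 0.656 and 0.640 in mNrf2-TG hearts. Its groups also did not overlap, but they came close, with a log2 difference of −0.10 (exact permutation p = 0.0571, adjusted 0.0571).

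**Figure D3:**
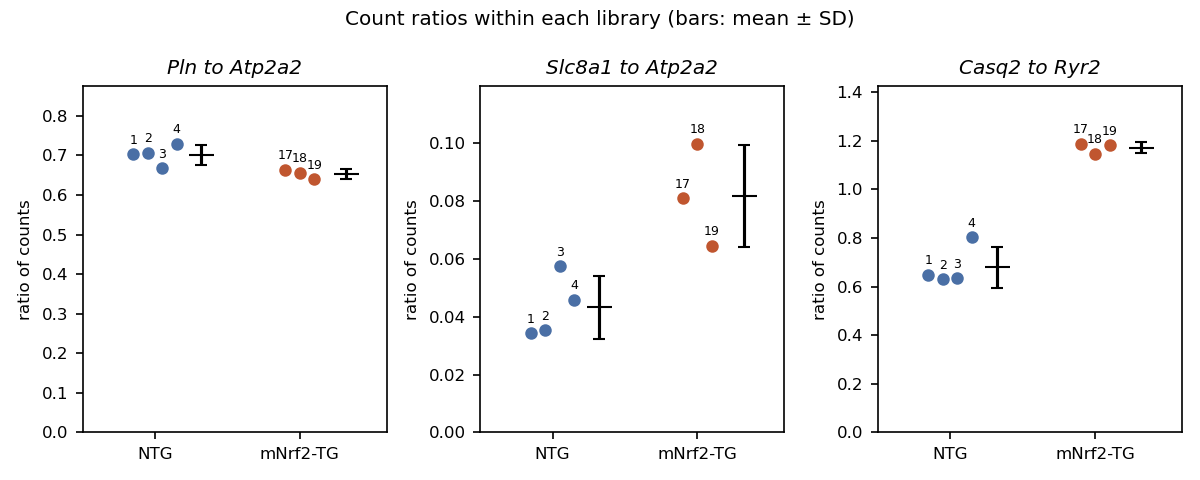
Ratio of counts (y axis, from 0) of Pln to Atp2a2, Slc8a1 to Atp2a2 and Casq2 to Ryr2 in each library, with NTG in blue, mNrf2-TG in red and bars for the mean ± SD. The Casq2 to Ryr2 ratio lies between 0.631 and 0.804 in NTG and between 1.15 and 1.19 in mNrf2-TG hearts.

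Around these members, a wider list of calcium handling genes was grouped by role. Of 103 named genes 101 were tested, and 12 were called higher, 14 lower and 75 were not called, with a median Log2FC of −0.09. The share called was 25.7%, against 17.2% of all genes. Abundant genes were called more often (39.4% of the 604 genes at least as abundant as Camk2d), and this list was not matched for abundance. On the scale of the cardiomyocyte markers, 28 were called higher and 3 lower (Cacna2d1, Camk2b and S100a1), while over all genes the calls went from 1241 higher and 1278 lower to 3992 higher and 379 lower. Cacng4 and Strit1 had no entry and were not analysed here.

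Among 15 channel subunits and regulators, 3 were higher and 2 lower. Rrad, a small GTPase that inhibits the L-type channel, rose from 407 ± 129 (SD, n = 4) to 1183 ± 102 normalised counts (n = 3), a Log2FC of 1.54 (adjusted p = 0.000944 in edgeR). Cacna1g, the pore of a T-type channel, rose from 186 ± 61.2 to 501 ± 121 (1.43, adjusted p = 0.00342), and the low-count Cacna2d3, an auxiliary subunit, from 7.31 ± 3.45 to 73.3 ± 20.6 (3.30, 0.000232). The main auxiliary subunits of the heart were lower: Cacna2d1, which promotes surface delivery of the L-type channel, fell from 2727 ± 109 to 1879 ± 92.0 (Log2FC −0.54, adjusted p = 0.000968). Cacnb2, the beta subunit, fell from 1033 ± 48.5 to 830 ± 63.4 (−0.31, 0.0204), with an adjusted p of 0.0507 to 0.0778 without NTG 1, NTG 2, mNrf2-TG 17 or mNrf2-TG 18. Scaled to cardiomyocyte markers, Cacna2d1 was called lower (−0.28, 0.0221) and Cacnb2 was not called (−0.06).

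Of 17 release channels and partners, 1 was higher and 1 lower. Tmem38b, a cation channel of the reticulum, went from 268 ± 40.5 to 378 ± 58.3 normalised counts (Log2FC 0.49, adjusted p = 0.0340), with groups that overlapped, and its call held without NTG 3 and without mNrf2-TG 18 but was lost without each of the other 5 libraries (adjusted p 0.0653 to 0.131). Hrc, a calcium-binding protein of the reticulum, fell from 12247 ± 573 to 10120 ± 498 (−0.28, 0.0183), and was not called without mNrf2-TG 17 (0.0755) or mNrf2-TG 19 (0.0526). Junction genes gave 1 higher and 1 lower of 9. Bin1, which shapes T-tubule membranes, rose from 52.9 ± 5.94 to 184 ± 34.7 (Log2FC 1.79, adjusted p = 9.48e-05). Jph1, a junctophilin of skeletal muscle, fell from 317 ± 51.9 to 204 ± 33.6 (−0.64, 0.0168), and was not called without mNrf2-TG 18 (0.0664) or mNrf2-TG 19 (0.0586).

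Pumps other than SERCA2 gave 1 higher and 1 lower of 7. Both called genes encode plasma membrane calcium pumps, which carry calcium out of the cell. Atp2b1 fell from 752 ± 34.4 to 599 ± 21.3 normalised counts (Log2FC −0.33, adjusted p = 0.0117). Atp2b2 was scarce, at most 8 counts per NTG heart and 15 to 32 per mNrf2-TG heart (2.45, 0.0136, and 0.0529 without mNrf2-TG 17 or 0.0523 without mNrf2-TG 19). Of 8 genes of sodium-linked exchange, 2 were higher and 2 lower. Slc8b1, the mitochondrial sodium-calcium exchanger, rose from 52.1 ± 7.86 to 99.4 ± 6.14 (0.92, 0.00338). Slc8a2, another plasma membrane exchanger, ranged from 8 to 12 counts per NTG heart and 20 to 21 per mNrf2-TG heart (0.97, 0.0413), and among the fits without 1 library was called only without NTG 3, and not in DESeq2 (0.103). Fxyd1, a regulator of the sodium pump, which sets the gradient that exchangers use, fell from 2957 ± 272 to 2246 ± 46.6 (−0.40, 0.0101). Scaled to cardiomyocyte markers, Atp2b1 (−0.07) and Fxyd1 (−0.14) were not called.

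Of 8 genes of store-operated entry, 0 were called in edgeR, DESeq2 or limma-voom, and 1 had an unadjusted p under 0.05 in edgeR. Of 9 mitochondrial calcium genes, 2 were higher and 1 lower. Micu2, which helps to gate the mitochondrial uniporter, rose from 970 ± 62.4 to 1253 ± 73.2 normalised counts (Log2FC 0.37, adjusted p = 0.0100). Letm1, an exchange protein of the inner membrane, was lower, from 946 ± 39.6 to 792 ± 16.9 (−0.26, 0.0264). The call of Letm1 was lost without NTG 1 or any 1 mNrf2-TG library (0.0662 to 0.0861) and with the library total as the scale (0.0507).

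Among 22 kinases, phosphatases and their anchors, 2 were higher and 5 lower. Prkaca, the catalytic subunit of protein kinase A, rose from 1398 ± 28.7 to 1778 ± 113 normalised counts (Log2FC 0.35, adjusted p = 0.00780), and Akap6, which anchors the kinase near the ryanodine receptor, from 2459 ± 246 to 3519 ± 351 (0.52, 0.00715). The regulatory subunit Prkar2a fell from 1059 ± 48.7 to 818 ± 51.4 (−0.37, 0.00830), Camk2b, the beta isoform of CaMKII, from 111 to 161 normalised counts in NTG hearts to 41.4 to 72.6 in mNrf2-TG hearts (−1.16, 0.00466), and Rcan2, an inhibitor of calcineurin, from 6434 ± 491 to 4744 ± 413 (−0.44, 0.00780). The beta isoform of CaMKII was thus lower, and the delta isoform Camk2d was not called (Log2FC 0.24, adjusted p = 0.0671 in edgeR). Of 6 buffers and sensors, 1 was called: S100a1, a calcium sensor that binds SERCA2 and the ryanodine receptor, fell from 6542 ± 425 to 4205 ± 265 (−0.64, 0.000692). Scaled to cardiomyocyte markers, Camk2b (−0.90) and S100a1 (−0.38) were called lower, and Prkar2a (−0.12) and Rcan2 (−0.19) were not called.

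**Figure D4:**
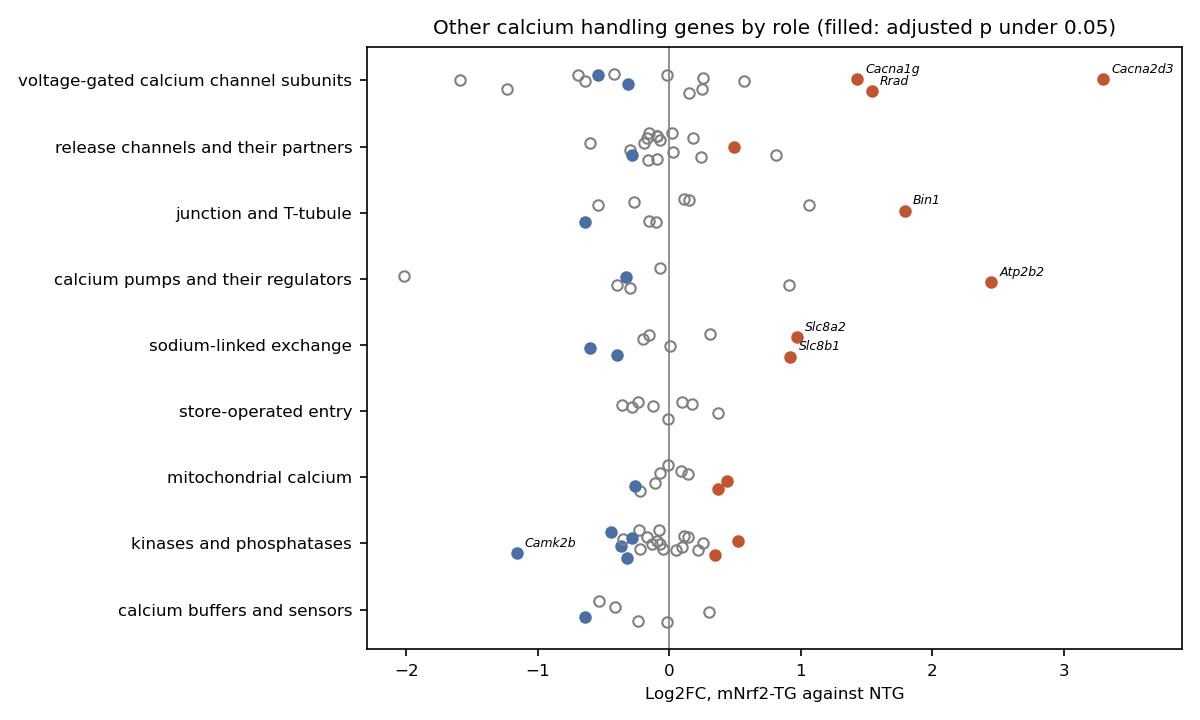
Log2FC of mNrf2-TG against NTG (x axis) for the 101 other calcium handling genes tested, in rows by role, with a point for each gene and filled points, red higher and blue lower, for an adjusted p under 0.05. Values run from −2.02 to 3.30, and filled points lie on both sides of 0 in 7 of the 9 rows.

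The levels of some other cell type markers also differed between the groups. Over all genes tested, 8.48% were called higher and 8.73% lower. Fibroblast markers were called higher in 5 of 7 genes (summed normalised count 8438 to 10916 in NTG, 12251 to 13149 in mNrf2-TG) and macrophage markers in 5 of 6 (887 to 1105 and 1600 to 2390). Dcn, the largest part of the fibroblast sum, was not called (mean 6149 in NTG and 7163 in mNrf2-TG, adjusted p = 0.0826 in edgeR). Endothelial markers gave 1 higher and 2 lower of 6 (5981 to 6427 and 5529 to 5977), and smooth muscle markers gave 0 of 5 in edgeR and DESeq2, 1 in limma-voom and 0 at an unadjusted p under 0.05 in edgeR (2655 to 9832 and 7192 to 11089). By mean, Acta2 was the largest part of the smooth muscle sum (2988 in NTG, with NTG 3 far above the others, and 7696 in mNrf2-TG). Of 6 atrial markers tested, Nppa and Stard10 were higher (summed 1243 to 1930 and 2748 to 4790), while Myl7, an atrial light chain, was at or near 0 in every library, with 0 to 4 counts. Nppa was the largest part of the atrial sum (mean 1011 in NTG and 2796 in mNrf2-TG). The authors also name Nppa among fetal genes that are active again in hypertrophy. Of 8 skeletal muscle markers, Myh1 and Myh4 were lower (649 to 1249 and 435 to 672), with Pvalb at 0 to 2 counts. Red blood cell markers gave 0 of 4 in edgeR and limma-voom, 1 in DESeq2 and 1 at an unadjusted p under 0.05 in edgeR (2365 to 3802 and 1507 to 3496), and conduction system markers gave 1 higher, Cacna1g, and 1 lower of 5 (345 to 726 and 635 to 890). The part of these differences in the values of the calcium handling genes was not tested.

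For the 2 members with the largest Log2FC in size, the genes with the most similar pattern over the 7 libraries were sought among 9665 genes with a mean normalised count of at least 50. Likeness was the root mean square difference of centred log2 normalised counts, a description with no test, and all genes shared the same libraries. Closest to Slc8a1 were Mmp2 (0.0977), a matrix metalloproteinase, Mov10 (0.121), an RNA helicase, and C1qa (0.130), a complement subunit of macrophages. Closest to Casq2 were Mfsd6 (0.0406), Selenow (0.0499), a selenoprotein, and Rab11fip5 (0.0547), which acts in vesicle traffic. Mfsd6 went from 376 ± 26.3 to 558 ± 36.4 normalised counts and Mmp2 from 538 ± 146 to 843 ± 134 (SD, n = 4 and 3).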

How the data were processed

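RNA sequencing of 7 mouse hearts was analysed from tables made by the authors. Deposited values were counts of reads per gene without normalization. Per the methods and the submitters' processing notes, the authors aligned 50-cycle single reads with Novoalign 2.08.01 and kept the best alignment per read. The methods name hg19 for the index and mm10 (GRCm38) for the transcriptome, and the counting program and its use of strand are not given in the sources used here. The authors' comparison, made in DESeq2 1.32.0, holds a signal column (mean normalised count), log2 fold changes with standard errors, a score (Wald statistic) and p-values, and served here only for gene names. The regularized log2 values deposited by the authors were not used. All sample columns were assigned to samples.

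Repeated entries of 1 Entrez gene (24) were removed, and 22 symbols came from RefSeq. Genes with a summed count above 1 were compared in edgeR 4.0.16 (R 4.3.3) with TMM (factors 0.967 to 1.03) and the quasi-likelihood test without covariates. P-values were adjusted by Benjamini-Hochberg over all 14637 genes, and a gene was called at an adjusted p under 0.05. Standard errors were derived from the Log2FC and its F statistic. Normalised counts were brought to the mean library total. Positions are from GENCODE M21. The precision is that of 4 against 3 mice, at 6534684 to 8405857 counts per library. Any pair of libraries had equal counts in at most 5.31% of genes, so none was taken for a duplicate. The script was tested on simulated data, where it called 36% of changes of 0.5 on the log2 scale and 96% of changes of 1.5. Of its calls there, 7.04% were false. Few genes were changed in the simulation, so these shares need not hold for the data here.

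Alternatives were DESeq2 1.42.0, limma-voom (limma 3.58.1), other scales and filters, and each library left out in turn. Members and lists were chosen with earlier results of these data known. Named are all members, up to 3 called genes per direction in each role group, the 3 genes most like each of the 2 members with the largest Log2FC, Nfe2l2 and markers where a list is described. Some genes that this rule names are not reported here. Acta2 and Cep85l were named after their values were seen. Tables were made with pandas 2.3.3 and numpy 2.4.6 in Python 3.11.15 and plots with matplotlib 3.10.9.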

Additional observations from a re-analysis of the deposited data

Results flagged for a closer look

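In groups of 4 libraries, a value was set aside for a closer look where its gap to the nearest other library, divided by the whole range, was above Dixon's 95% critical value for 4 samples. The NTG values of each member, each called gene named in the wider list and each ratio were checked, 36 groups in all, of which 3 passed, and chance flags about 1 group in 20. Hrc had 13103 normalised counts in NTG 3 against 11896 to 12030 in the other NTG hearts. Prkaca had 1440 in NTG 3 against 1380 to 1389. The Casq2 to Ryr2 ratio was 0.804 in NTG 4 against 0.631 to 0.649, and without NTG 4 its log2 difference between the groups was 0.88. Groups of 3 libraries were not checked.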

How the results depend on the processing

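No paired analysis was possible because NTG libraries are numbered 1 to 4 and mNrf2-TG libraries 17 to 19, with no number shared. Casq2 was called under all 14 alternatives to the test, scale, filter and set of libraries (Log2FC 0.52 to 0.61), Pln under 13, Trdn under 12 and Slc8a1 under 10. Without 1 library, 1 to 3 members were called higher and 1 to 2 lower, 8 to 15 genes of the wider list higher and 9 to 18 lower, and 704 to 1471 of all genes higher and 669 to 1479 lower. The lower counts come with fewer samples. Scaled to 8 cardiomyocyte markers, an alternative added after the data were seen, 3 members were called higher and 0 lower, 28 genes of the wider list higher and 3 lower, and 3992 of all genes higher and 379 lower. In that fit the median over all genes went from 0.001 to 0.255 and the Log2FC of Pln from −0.25 to 0.00. A change of scale moves all genes by about the same amount. The log2 difference of the Casq2 to Ryr2 ratio was 0.76 to 0.88 without 1 library, designs too small to reach a p under 0.05. That of Slc8a1 to Atp2a2 was 0.77 to 1.09 and that of Pln to Atp2a2 −0.13 to −0.08. On a linear scale the Slc8a1 to Atp2a2 difference, as the log2 of the ratio of means, was 0.92 (exact permutation p = 0.0286). The planned ratio of Sln to Atp2a2 was not run, since Sln had no entry. Atp2b2, Slc8a2 and Cacna2d3 had under 15 counts in each NTG library, which limits their fold changes.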
